A study of Mus musculus with 12 samples.

Results

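Glucuronosyltransferases (Ugt), sulfotransferases (Sult) and glutathione transferases (Gst) are the enzymes that join glucuronic acid, sulfate or glutathione to drugs, hormones and waste products. Every gene whose symbol begins with Ugt1 to Ugt3, with Sult and a digit from 1 to 9, or with Gst and a further lower-case letter was taken, which gave 60 of the 22564 genes listed: 20 Ugt, 18 Sult and 22 Gst genes. The study profiled the liver of male C57BL/6 mice, 8 weeks old, either wild type or lacking Mettl3 in the liver through a liver-specific knockout (cKO). Mettl3 encodes the enzyme that methylates adenosine in RNA to N6-methyladenosine (m6A). It sequenced 12 libraries in 4 groups of 3: wild-type input RNA, wild-type RNA precipitated with an anti-m6A antibody (IP), Mettl3 cKO input and Mettl3 cKO IP. The sources used here give neither the driver of the knockout nor the liver cells it reaches. Only 1 input library and 1 IP peak list per genotype could be tied to a genotype, through the names control and case. The labels do not say what these names mean. They were taken here to stand for wild type (control) and Mettl3 cKO (case), and the libraries are called control and case throughout. With 1 library per genotype there is no replicate check: no difference below has a test, and each interval covers at most counting error.

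Conjugation makes small molecules more soluble in water, so that they leave through bile or urine, and the liver is its main site. A Ugt enzyme takes its sugar from UDP-glucuronate, a Sult enzyme takes sulfate from PAPS, and most Gst enzymes use glutathione. Ugt enzymes sit in the membrane of the endoplasmic reticulum, whereas Sult enzymes and most Gst enzymes are soluble. The Ugt1a genes are a special case: each has its own first exon, and all share the downstream exons of one locus. The m6A mark on mRNA is laid down mainly by METTL3 with its partner METTL14, is found chiefly near stop codons and in long internal exons, and is read by proteins that alter splicing, translation and decay.

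Upstream sequences of 4 Ugt2b genes are printed first, because these genes share a run of bases there and each carried a control-list m6A peak that began at or within 50 bases of its annotated start, as did the other Ugt2b genes. The sequences are the 120 bases upstream of that start, 5′ to 3′ on the strand of the gene, from RefSeq on GRCm38.p6, whose coordinates are those of mm10. They lie at chr5:87140341-87140460 for Ugt2b5, chr5:87092556-87092675 for Ugt2b36, chr5:87254789-87254908 for Ugt2b37 and chr5:87424204-87424323 for Ugt2b38, all on the minus strand. Capitals mark a shared run of 22 bases.
Ugt2b5: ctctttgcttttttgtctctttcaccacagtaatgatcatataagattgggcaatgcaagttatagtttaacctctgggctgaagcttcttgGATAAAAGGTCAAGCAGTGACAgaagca
Ugt2b36: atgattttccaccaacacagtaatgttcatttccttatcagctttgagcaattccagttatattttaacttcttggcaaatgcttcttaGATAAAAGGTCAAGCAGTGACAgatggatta
Ugt2b37: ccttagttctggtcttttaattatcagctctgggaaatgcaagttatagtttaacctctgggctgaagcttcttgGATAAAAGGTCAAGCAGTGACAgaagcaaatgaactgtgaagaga
Ugt2b38: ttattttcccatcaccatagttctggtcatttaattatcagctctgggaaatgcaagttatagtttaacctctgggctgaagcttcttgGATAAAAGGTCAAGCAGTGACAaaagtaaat

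The run GATAAAAGGTCAAGCAGTGACA was found in 4 of the 32851 RefSeq promoter windows, those of Ugt2b5, Ugt2b36, Ugt2b37 and Ugt2b38, searched on both strands of the 250 bases before each start. Ugt2b5, Ugt2b37 and Ugt2b38 shared a longer run of 62 bases around it. The Ugt2b genes are close copies of one another, and the assignment of reads among them is uncertain. A shared run describes these letters and does not show that a factor binds there.

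The 2 inputs differed as whole libraries, which bears on every value below. The depth recovered from the deposited values was 1737351 fragments in control and 3564809 in case. FPKM is meant to normalise fragments to transcript length and library size. The deposited totals were not equal: genes with a mean of at least 1 FPKM, 9584 in all, summed to 114956 FPKM in control and 208985 in case. Of these genes, 23.6% stood 2-fold or more above control in the case input. A further 13.2% stood 2-fold or more below it. Their median difference of log2(FPKM + 1) was 0.41. Scaling to equal non-mitochondrial totals moved that median to -0.15. The targeted gene, Mettl3, was at 3.44 FPKM (12 fragments) in control and 2.91 FPKM (17 fragments) in case. The counting interval of its ratio of scaled fragments, 0.545 to 2.78, included 1. Its FPKM was lower in case and its fragments more numerous, so Mettl3 does not settle whether case is the Mettl3 cKO. Hepatocyte markers (6 of 8 at least 2-fold higher) summed to 13186 FPKM in control and 27274 FPKM in case. Kupffer cell markers (11 of 11 at least 2-fold lower) summed to 653 and 16.5 FPKM, those of sinusoidal endothelium (9 of 9 lower) to 287 and 28.1 FPKM, and those of stellate cells (5 of 5 lower) to 71.6 and 7.81 FPKM. Of 6 cholangiocyte markers 1, Spp1, reached a mean of 1 FPKM and was at least 2-fold lower (6.92 and 1.45 FPKM). The 6 summed to 9.0 and 1.94 FPKM. Krt7, Krt19, Epcam and Cftr were at 0 in case, from 2, 7, 3 and 2 control fragments, and Sox9 was at 0.498 FPKM in both. Of 7 markers of T, NK and B cells 1, Nkg7, reached that mean and was lower (10 and 1 fragments). The 7 summed to 8.19 and 0.861 FPKM, with Cd3e and Klrb1c at 0 in case, from 12 and 2 control fragments. The part of these cell-type differences in the results was not tested, and in bulk liver fewer cells of a type and less RNA per cell cannot be told apart.

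Of the 60 members, 44 reached a mean of 1 FPKM: 19 of 20 Ugt, 8 of 18 Sult and 17 of 22 Gst genes. The other 16 had at most 20 fragments in either input, and 8 of them were listed at 0 in both: Gstp2, Gstt4, Sult1c1, Sult2a3, Sult2a4, Sult2b1, Sult6b1 and Ugt2a1. A difference of 1 on the log2(FPKM + 1) scale, a 2-fold difference, is called higher or lower below.

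**Figure D1:**
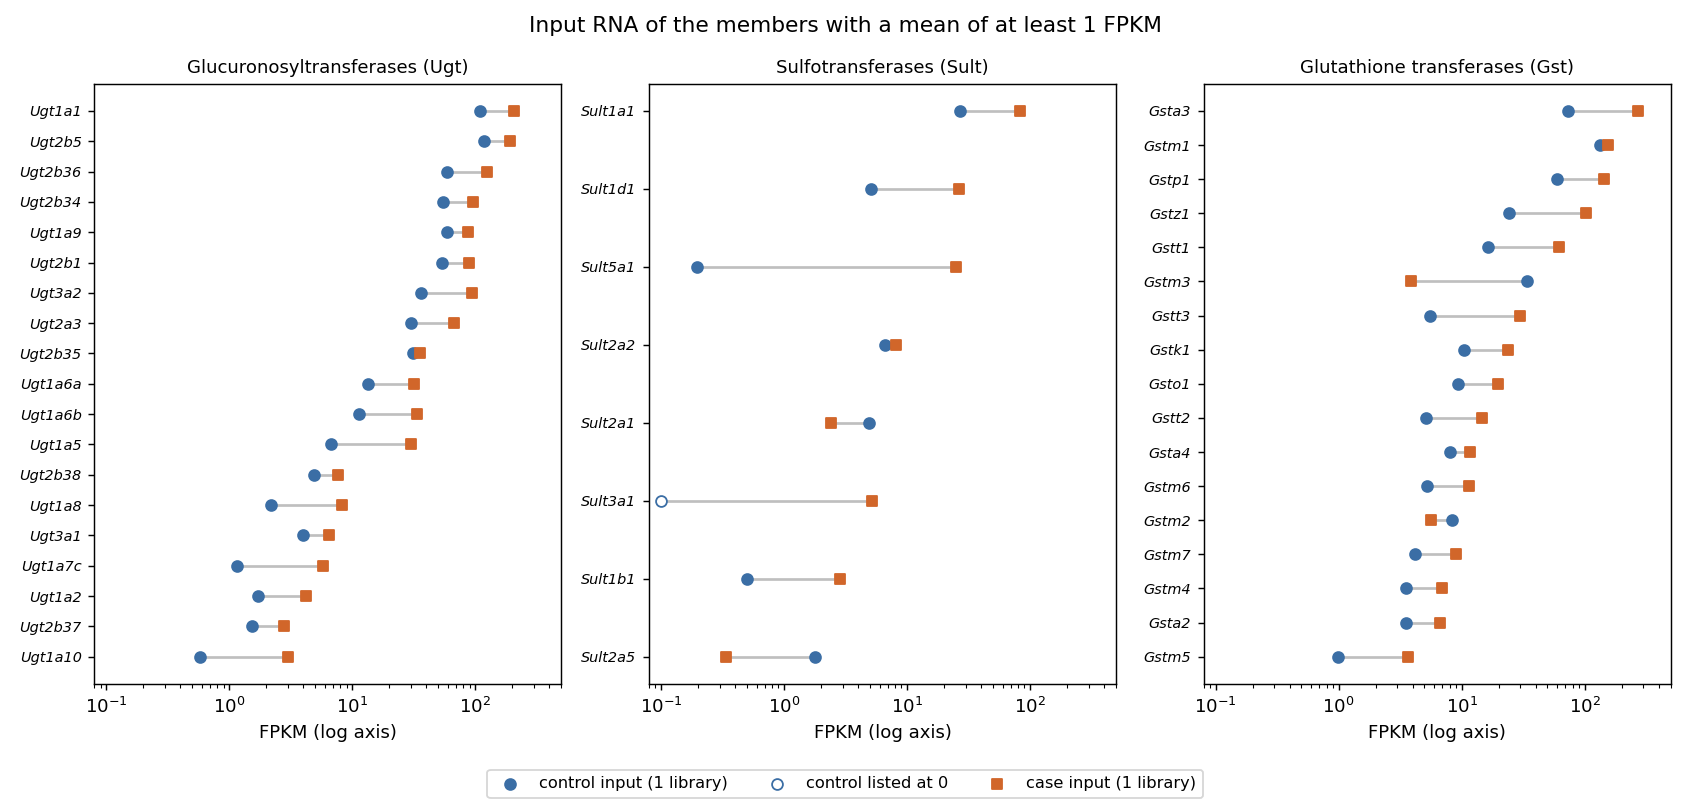
Level of each of the 44 members in the control input (blue circles) and the case input (orange squares), in FPKM on a log axis, ordered by mean level in each family; 1 library per genotype, and Sult3a1, listed at 0 in control, is drawn at the left edge as an open circle. In Ugt each case point lies to the right of its control point, and Gstm3, Gstm2, Sult2a1 and Sult2a5 are the members whose case point lies to the left.

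Among the glucuronosyltransferases, 9 of 19 were called higher and 0 lower in case, with a median log2 difference of 0.94. Scaled to equal non-mitochondrial totals, the split was 2 higher and 0 lower, against 8.01% higher and 20.9% lower over all genes kept. With fragments scaled to library depth in place of FPKM it was 4 and 0, against 8.94% and 25.2%. Median centring also gave 4 and 0 (11.6% and 18.4% over all genes), as did quantile normalization (14.3% and 15.5%). Relative to the median of all genes kept, the family median was 0.53. Among genes with a mean of at least 10 FPKM, the level of most of these enzymes, 47.3% were called higher and 7.59% lower, and their median was 0.95. Summed over the family, the level was 596 FPKM in control and 1123 FPKM in case, while all genes kept summed to 114956 and 208985 FPKM.

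Ugt1a1, the enzyme that conjugates bilirubin, was at 109.5 FPKM in control and 208 FPKM in case. This rested on 1273 and 2827 fragments, a ratio of scaled fragments (the authors' deposited signal, case over control) of 1.9 (95% counting interval 1.77 to 2.03). That signal does not equalise the depth of the 2 libraries. Ugt2b5, which conjugates steroids and drugs, stood at 117 FPKM in control and 191 FPKM in case, from 1139 and 2177 fragments, with a ratio of 1.63 (1.52 to 1.76). These genes exchanged the first and the second place in the family, each holding between 17.0% and 19.7% of its summed FPKM. Ugt2b36 followed, with 58.7 FPKM (463 fragments) in control and 124 FPKM (1304 fragments) in case, a ratio of 2.41 (2.16 to 2.68). Ugt1a1 and Ugt2b5 were above control on FPKM as deposited but each was below it under at least 1 other scaling (lowest log2 differences -0.27 and -0.46), whereas Ugt2b36 was above control under all 8 settings tried but called higher under 4 of them (lowest log2 difference 0.047). With fragments scaled to library depth, the log2 differences were 0.11 for Ugt1a1, -0.10 for Ugt2b5 and 0.46 for Ugt2b36.

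The other Ugt2 genes held the middle ranks. Ugt2b34 was at 54.4 FPKM in control and 95.01 FPKM in case, and Ugt2b1 at 53.4 and 89.3 FPKM. Ugt2a3, whose human counterpart conjugates bile acids, was at 29.9 and 67.4 FPKM, a called difference. Ugt2b35 differed least in the family, at 30.9 FPKM in control and 35.2 FPKM in case, and its ratio interval, 0.972 to 1.33, included 1. Ugt2b38 (4.92 and 7.61 FPKM) and Ugt2b37 (1.53 and 2.79 FPKM) were the least abundant, and the interval of Ugt2b37 also included 1. In the Ugt2b subfamily 1 of 7 genes, Ugt2b36, was called higher, with a median log2 difference of 0.70. Ugt2b1, Ugt2b34, Ugt2b35 and Ugt2b38 changed sign under at least 1 other scaling.

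The Ugt1a genes other than Ugt1a1 spanned a wide range. Ugt1a9, which conjugates phenols, was at 58.5 FPKM in control and 86.8 FPKM in case, a sign that also turned under other scalings. Ugt1a6a and Ugt1a6b, which conjugate planar phenols, stood at 13.4 and 31.8 FPKM and at 11.3 and 33.4 FPKM. On the log2(FPKM + 1) scale the largest difference of the family was that of Ugt1a5, with 6.69 FPKM (76.9 fragments) in control and 29.9 FPKM (402 fragments) in case, a ratio of 4.47 (3.49 to 5.77). Next came Ugt1a7c, at 1.15 FPKM (12 fragments) and 5.77 FPKM (85.3 fragments), with a ratio of 6.07 (3.29 to 12.2). Ugt1a8 followed by log2 difference, at 2.18 FPKM (25.3 fragments) and 8.32 FPKM (113 fragments), with a ratio of 3.83 (2.49 to 6.22). Ugt1a2 (1.71 and 4.19 FPKM) and Ugt1a10 (0.583 and 3.0 FPKM) had the lowest means of the subfamily. Ugt1a10, called higher, met the filter only through its case value. Of the 9 Ugt1a genes 6 were called higher, with a median of 1.34. Each of the 9 had fragments that were not whole in at least 1 library, and all lie in 1 bundled locus, chr1:88055388-88220002 on the plus strand, so that the split of shared-exon reads among them is the authors' estimate.

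Of the Ugt3a pair, whose human counterparts use sugars other than glucuronic acid, Ugt3a2 was at 35.9 FPKM (438 fragments) in control and 93.9 FPKM (1333 fragments) in case and was called higher. Ugt3a1 stood at 3.95 and 6.48 FPKM, and its sign turned under 1 scaling. Across the family 17 of 19 ratio intervals lay above 1, on a signal whose total was higher in case. The share of all genes with such an interval was not calculated, so the count is not shown to be particular to the family. Ugt1a5 and Ugt1a7c were called higher under every setting in which they were kept.

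Of the sulfotransferases kept, 5 of 8 were called higher and 1 lower, with a median log2 difference of 1.47 (1.06 relative to the median of all genes kept), against 23.6% higher and 13.2% lower over all genes kept. Of those called higher, Sult3a1, Sult5a1 and Sult1b1 were below 1 FPKM in control and met the filter only through their case value. Sult2a5, called lower, met it only through its control value. Without a filter 5 were called higher and 1 lower, and the median was 0.19. With equal non-mitochondrial totals the split was 3 higher and 2 lower, against 8.01% and 20.9%. The family summed to 46.3 FPKM in control and 154 FPKM in case, the lowest of the 3 families in both libraries. Sult1a1, the main phenol sulfotransferase of liver, made up 57.2% of that sum in control and 53.3% in case.

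Sult1a1 was at 27.2 FPKM (170 fragments) in control and 83.2 FPKM (637 fragments) in case, a ratio of 3.20 (2.70 to 3.81). Sult1d1, which sulfates catecholamines, stood at 5.13 FPKM (53 fragments) and 26.6 FPKM (242 fragments), with a ratio of 3.90 (2.89 to 5.35). Sult1b1, which sulfates thyroid hormones, was near the filter at 0.502 FPKM (3 fragments) and 2.85 FPKM (22 fragments), with a ratio of 6.26 (1.88 to 32.7). All 3 Sult1 genes kept were thus called higher, and Sult1d1 was so under every setting.

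The widest differences of the family came from genes almost absent from control. Sult5a1 had 1 fragment in control (0.197 FPKM) and 126 in case (24.9 FPKM), a ratio of 108 with an interval from 19.0 to 4284. The authors' locus for Sult5a1, chr8:119910360-124345724 on the minus strand, spans many neighbouring genes. Sult3a1, which in mouse sulfates amines, had 0 fragments in control and 31 in case (5.23 FPKM), at least 8.83-fold higher than the limit that a count of 0 allows (3 counts per library). Both were called higher under every setting in which they were kept.

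The Sult2 genes, which sulfate hydroxysteroids and bile acids, did not share this direction. Sult2a2 was at 6.57 FPKM (22 fragments) in control and 8.15 FPKM (32 fragments) in case, and its sign turned under other scalings. Sult2a1 was at 4.89 FPKM (24 fragments) and 2.43 FPKM (14 fragments), a ratio of 0.498 (0.238 to 1.003). Sult2a5 was called lower, with 1.79 FPKM (9 fragments) in control and 0.34 FPKM (2 fragments) in case, a ratio of 0.190 (0.020 to 0.917). It was called lower under 6 of the 7 settings in which it was kept and not after quantile normalization (log2 difference -0.85), and Sult2a1 was called lower under 3 of 7. Of the 3 Sult2 genes kept, 0 were called higher and 1 lower, with a median log2 difference of -0.78. The Sult2a genes are close copies clustered on chromosome 7, and the assignment of so few reads among them is uncertain. The remaining 10 Sult genes had a mean below 1 FPKM.

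**Figure D2:**
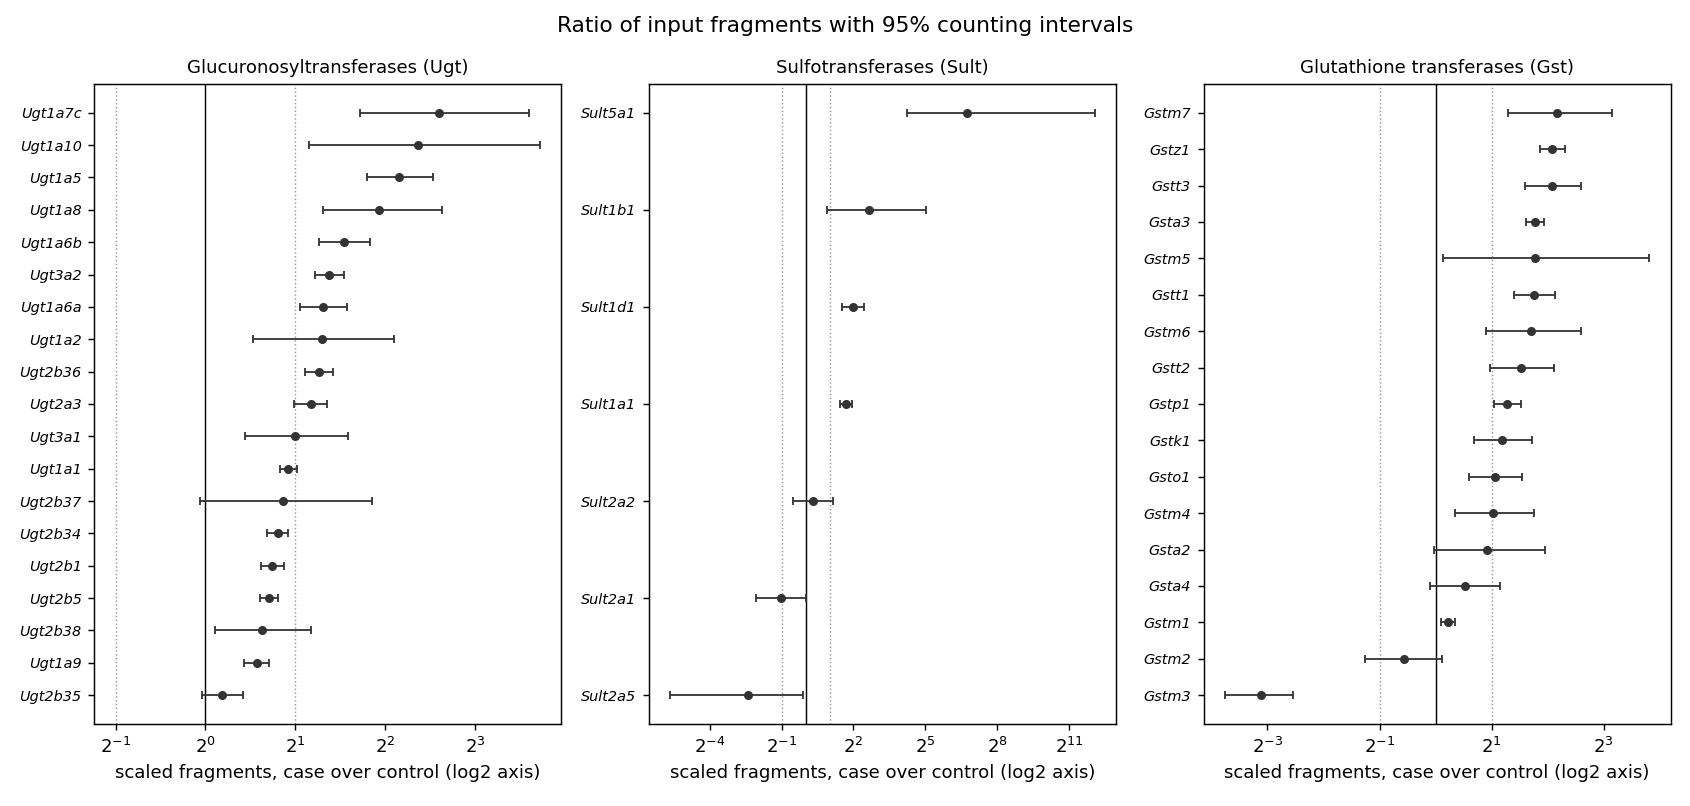
Ratio of scaled fragments, case over control, for each member with fragments in both inputs, with 95% counting intervals as bars on a log2 axis that differs between panels; the solid line is a ratio of 1, and dotted lines mark 0.5 and 2. Intervals lie above 1 for 17 of 19 Ugt, 4 of 8 Sult and 13 of 17 Gst genes, and below 1 for Gstm3 and Sult2a5. Sult3a1, at 0 in control, is not drawn. The scaled fragments do not equalise depth and their total was higher in case. The share of all genes with an interval above or below 1 was not calculated.

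Of the glutathione transferases kept, 9 of 17 were called higher and 1 lower, with a median log2 difference of 1.003 (0.59 relative to the median of all genes kept). Over all genes kept 23.6% were called higher and 13.2% lower, beside 52.9% and 5.88% of the Gst genes. Among genes with at least 10 FPKM the shares were 47.3% and 7.59%. At that cut-off 16 of 24 members of the 3 families (66.7%) were called higher and 1 lower. The share of Gst genes alone at that cut-off was not calculated. With equal non-mitochondrial totals 4 were called higher and 2 lower, against 8.01% and 20.9%. The classes differed in their values: the alpha, theta, pi, omega, kappa and zeta members were above control on FPKM as deposited, whereas 2 of 7 mu members were below it; this counts the members kept. The family summed to 405 FPKM in control and 882 FPKM in case.

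In the alpha class, which also reduces lipid peroxides, Gsta3 was at 73.3 FPKM (395 fragments) in control and 271 FPKM (1586 fragments) in case, a ratio of 3.43 (3.07 to 3.84). It held 18.0% of the summed FPKM of the family in control and 30.6% in case, where it ranked first. Gsta4, which conjugates the lipid aldehyde 4-hydroxynonenal, stood at 8.13 and 11.6 FPKM, and Gsta2 at 3.54 and 6.64 FPKM. The ratio intervals of Gsta4 (0.938 to 2.21) and Gsta2 (0.977 to 3.85) included 1, and the sign of Gsta4 turned under other scalings.

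The mu class held the member that differed most in the lower direction. Gstm3 was at 34.0 FPKM (201 fragments) in control and 3.89 FPKM (27 fragments) in case, a ratio of 0.115 (0.0738 to 0.172), and was called lower under all 8 settings. Its place in the family went from the fourth to the sixteenth. The markers of Kupffer, endothelial and stellate cells were lower in the same library; their part in the Gstm3 value was not tested. The authors' locus for Gstm3, chr3:107938847-107969283, is also that of Gstm6, and Gstm6 was at 5.23 FPKM (16 fragments) in control and 11.4 FPKM (61 fragments) in case.

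Gstm1, the most abundant Gst gene in control, was at 133 FPKM (847 fragments) there and 156 FPKM (1155 fragments) in case, a ratio of 1.16 (1.06 to 1.27). Its share of the family sum went from 32.8% to 17.7%, and its sign turned under other scalings. Gstm2 was at 8.35 FPKM (43 fragments) and 5.63 FPKM (34 fragments), a ratio of 0.675 whose interval, 0.418 to 1.084, included 1. Gstm7 (4.15 and 9.02 FPKM), Gstm4 (3.53 and 6.95 FPKM) and Gstm5 (0.985 and 3.65 FPKM) were above control under every setting in which they were kept. For Gstm7 (13 and 68 fragments) the ratio of scaled fragments, 4.47 (2.45 to 8.82), was larger than the FPKM ratio, 2.17, and for Gstm6 the values were 3.26 (1.85 to 6.05) and 2.19. Gstm5 alone among the mu genes was called higher on FPKM as deposited. This rested on 4 fragments in control and 16 in case, a ratio of 3.42 (1.10 to 14.0). Gstm5 met the filter only through its case value and was called higher under 4 of the 7 settings in which it was kept. The Gstm genes form 1 cluster of close copies on chromosome 3, and the division of reads among them is uncertain.

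Gstp1, the pi-class enzyme, was at 59.5 FPKM (200 fragments) in control and 144 FPKM (568 fragments) in case, a ratio of 2.43 (2.06 to 2.86). Gstz1, which as maleylacetoacetate isomerase acts in the breakdown of tyrosine, was at 24.1 FPKM (205 fragments) and 102 FPKM (1018 fragments), with a ratio of 4.24 (3.65 to 4.95). All 3 theta genes kept were called higher: Gstt1 stood at 16.4 and 62.2 FPKM, Gstt2 at 5.11 and 14.7 FPKM, and Gstt3 at 5.55 FPKM (43 fragments) and 29.6 FPKM (213 fragments). The ratio of Gstt3 was 4.23 (3.04 to 6.02). Gstz1 and Gstt3 were the Gst genes called higher under every setting. Gstk1, the kappa-class enzyme of mitochondria and peroxisomes, was at 10.5 and 23.8 FPKM. Gsto1, the omega-class enzyme that can reduce dehydroascorbate, was at 9.30 and 19.6 FPKM and passed the 2-fold mark by little (log2 difference 1.003), while Gstm6 (0.997) stayed just under it.

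Genes around the 3 families were followed by lists. The shares over all genes kept, to set beside each list, were 23.6% called higher and 13.2% lower, or 47.3% and 7.59% among genes with at least 10 FPKM. Of 6 genes of UDP-sugar synthesis and transport and of glucuronide cleavage (Ugp2, Ugdh, Slc35d1, Slc35b1, Slc35a3 and Gusb), 4 were called higher and 0 lower (median log2 difference 1.29). Slc35a3, a carrier of UDP-N-acetylglucosamine, and Slc35b1, a nucleotide carrier of the endoplasmic reticulum, were among the 4, and Gusb, which cleaves glucuronides, was not. Ugdh, which makes UDP-glucuronate, was at 13.1 FPKM in control and 15.8 FPKM in case, whereas Ugp2, which makes its precursor UDP-glucose, was at 16.5 and 40.1 FPKM. Of 8 genes of PAPS and sulfate supply, 3 were called higher and 1 lower (median 0.49). The PAPS synthases differed: Papss2 was at 10.1 and 30.1 FPKM and Papss1 at 2.26 and 0.623 FPKM. Bpnt1, which removes the by-product of sulfation, was at 3.09 and 18.6 FPKM.

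Of 10 glutathione genes kept, 6 were called higher and 0 lower (median 1.10). Both subunits of glutamate-cysteine ligase were near 2-fold, with Gclc at 11.3 FPKM in control and 23.1 FPKM in case and Gclm at 23.0 and 48.4 FPKM. Of 9 other conjugating enzymes kept, 7 were called higher and 0 lower (median 1.84), among them Mgst1, a membrane-bound glutathione transferase of another family, at 241 and 1059 FPKM. Of 6 transporters that export conjugates, 3 were called higher and 1 lower (median 0.82). Abcc2, the canalicular export pump, was at 55.3 and 197 FPKM, and Abcc1 at 2.06 and 0.270 FPKM. These medians stand beside 0.41 for all genes kept and 0.95 for genes with at least 10 FPKM.

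The m6A peak lists held 17175 peaks in control and 17277 in case. Fold enrichment, the ratio of IP over background, and the false discovery rate (FDR) are the authors' own values for each peak. The lists differed in their confidence: the median peak had a fold of 28.5 and an FDR of 1.66% in control, against 14.95 and 12.3% in case. Where folds of both lists are given below, each is a value within its own list, and they were not compared between lists. The members held 77 control-list peaks in 38 genes and 21 case-list peaks in 17 genes. Of the 44 members kept, 34 (77.3%) held a peak of the control list and 16 (36.4%) one of the case list. Over all genes kept the shares were 65.6% and 65.4%, and over genes with at least 10 FPKM they were 79.9% and 60.8%. In all, 14 members had peaks in both lists, 24 in control alone, 3 in case alone (Sult1b1, Gsta2 and Gstm4) and 19 in neither.

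**Figure D3:**
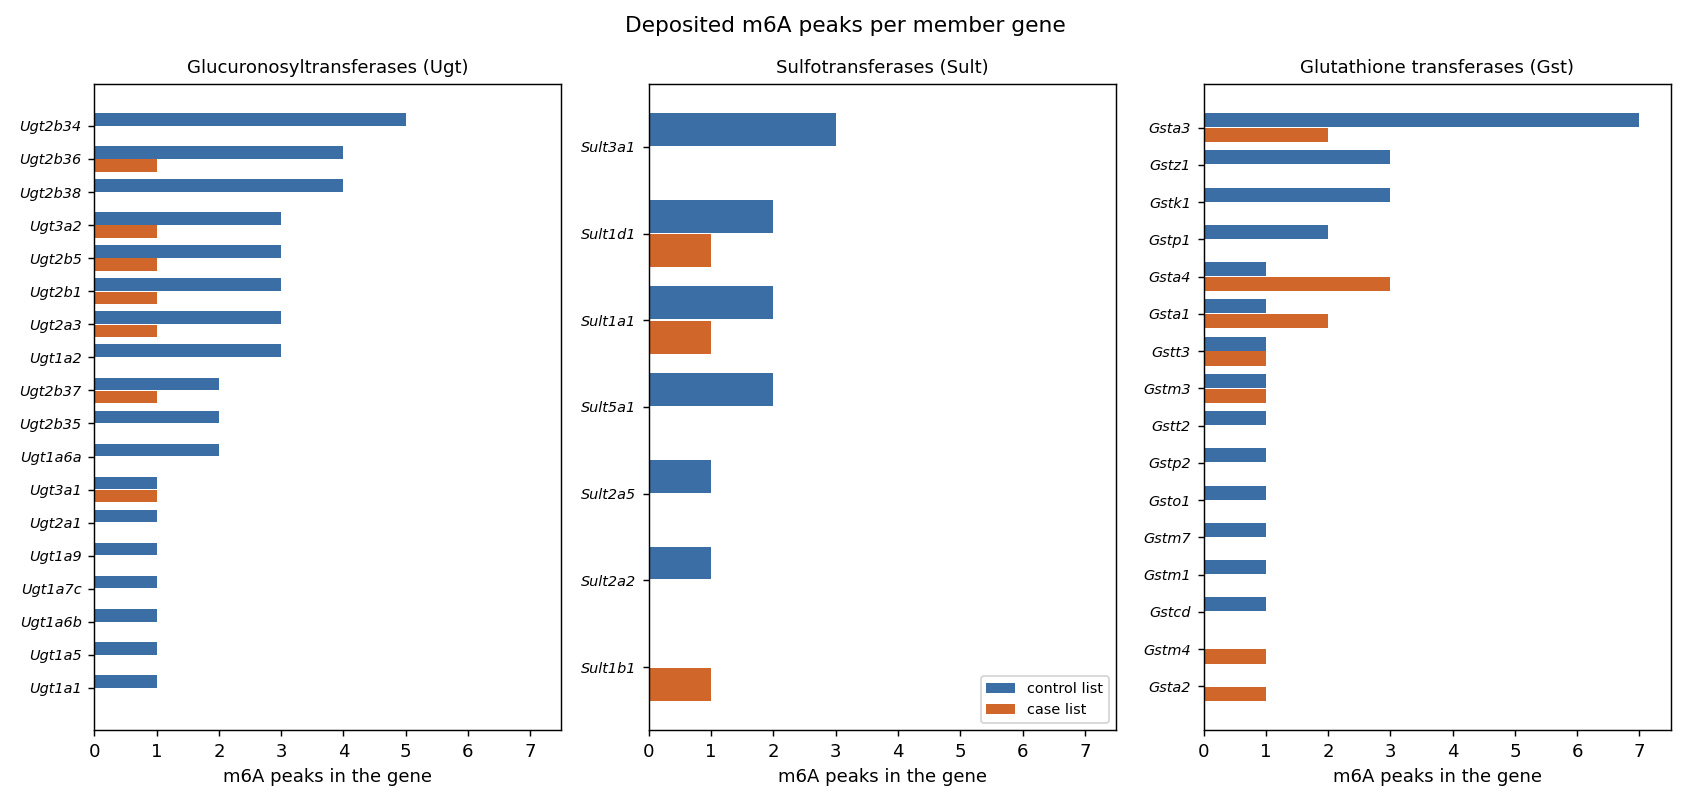
Number of deposited m6A peaks in each member gene that has any, in the control list (blue bars) and the case list (orange bars); 1 list per genotype. Gsta3 has the most control-list peaks (7), and Gsta4, Gsta1, Sult1b1, Gstm4 and Gsta2 are the genes with more case-list than control-list peaks.

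Glucuronosyltransferases carried 41 control-list peaks in 18 of 20 genes and 7 case-list peaks in 7 genes. The Ugt1a genes had 10 control-list peaks, in 7 of 9 genes, and 0 case-list peaks. The Ugt2b genes had 23 control-list peaks, in 7 of 7 genes, and 4 case-list peaks, in 4 genes. Ugt1a8 and Ugt1a10 had none in either list.

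The Ugt2b genes carried peaks at their start, next to the stretch printed above for 4 of them; the start peaks of Ugt2b37 reached 16 bases into that stretch. Of the 37 control-list Ugt peaks that could be placed against a RefSeq gene start, 11 (29.7%) began within 50 bases of it, against 3.13% of control-list peaks over all genes. These were the peaks of 7 of 7 Ugt2b genes, of Ugt2a3 and of Ugt1a1, Ugt1a2 and Ugt1a5. In the Ugt2b genes they were 382 bases (Ugt2b35) to 758 bases (Ugt2b5 and Ugt2b37) long. Their fold was 329 for Ugt2b37, 166 for Ugt2b1, 48.3 for Ugt2b36, 30.1 for Ugt2b38, 22.4 for Ugt2b5, 14.2 for Ugt2b35 and 5.47 for Ugt2b34. The value of Ugt2b37 was the highest of any member peak and stood within the top 0.932% of its list, although that gene had 15 fragments in the control input. In the case list Ugt2b36 (fold 6.12) and Ugt2b37 (fold 8.85) also had a peak at the start, and a case-list peak of Ugt2b1 (fold 13.6) began 96 bases after it.

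**Figure D4:**
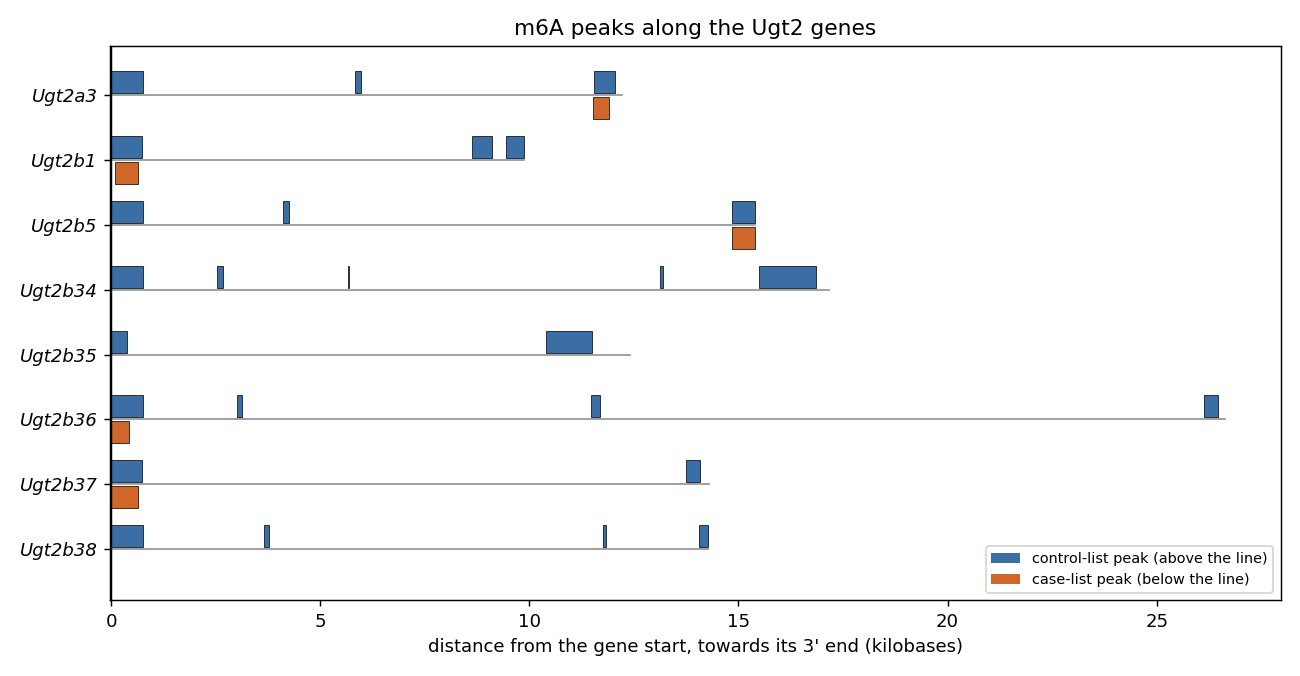
Peaks along the 7 Ugt2b genes and Ugt2a3, with distance from the RefSeq gene start in kilobases; blue boxes above each line are control-list peaks and orange boxes below are case-list peaks, and the line spans the gene. Each of the 8 genes has a control-list peak at its start and another in its 3′ part, and Ugt2b34, Ugt2b35 and Ugt2b38 have no case-list peak.

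A further group of Ugt2 peaks lay in the 3′ part of the gene. The peak at chr5:87124947-87125492 in Ugt2b5, which reached the annotated gene end, had the same coordinates in both lists, with a fold of 53.9 in control and 6.79 in case. Ugt2a3 also had a 3′ peak in both lists (fold 28.7 and 3.74), 174 and 317 bases from its end. Ugt2b34 had 5 control-list peaks, the most of any Ugt gene, with folds from 2.73 to 9.18 and the longest member peak, of 1374 bases. The single Ugt2a1 peak (47 bases, fold 16.2) lay in a gene with 0 input fragments in either library.

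In the Ugt1a locus, the control-list peak at the start of Ugt1a1, chr1:88211959-88212871, spanned 913 bases with a fold of 11.03. Ugt1a5 (892 bases, fold 35.3), Ugt1a9 (833 bases, fold 6.12) and Ugt1a7c (477 bases, fold 95.1) had a peak in their own 5′ part, at 0, 55 and 301 bases from the start. Ugt1a2 had a pair there (fold 68.6 and 67.1), and Ugt1a6a had one 3599 bases from its start with a fold of 36.0. Peaks named for Ugt1a2 at chr1:88218127-88219097 and for Ugt1a6a at chr1:88215626-88216532 lay 3′ of the Ugt1a1 peak, in the stretch common to the Ugt1a genes. Ugt1a6b had a peak of 91 bases with a fold of 2.54, the lowest of the control-list member peaks. Ugt3a2 had a peak that overlapped between lists (fold 125 in control and 6.73 in case), and Ugt3a1 had 1 peak in each list at different places.

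Sulfotransferases carried 11 control-list peaks in 6 of 18 genes and 3 case-list peaks in 3 genes. The peak of Sult1a1 with the highest fold, chr7:126672870-126673597, reached to 5 bases from the gene end. Its fold of 274 stood within the top 1.46% of the control list, and the case list held a peak with the same start, 717 bases long, with a fold of 8.64. Sult1d1 had 2 control-list peaks (fold 31.6 and 33.9), of which the second was overlapped by a case-list peak (fold 2.80). Sult1b1 had 1 case-list peak with a fold of 62.9, the highest of the case-list member peaks, from 22 case input fragments. Sult3a1 had 3 control-list peaks (fold 160, 31.6 and 186) although it had 0 control input fragments, and none in the case list, where it had 31. Sult5a1 likewise had 2 control-list peaks (fold 27.0 and 30.8) with 1 control fragment and none in the case list with 126. Sult2a2 (209 bases, fold 52.0) and Sult2a5 (7 bases, fold 20.8) had 1 control-list peak each.

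Glutathione transferases carried 25 control-list peaks in 14 of 22 genes and 11 case-list peaks in 7 genes. The alpha class held 9 of the control-list peaks, in 3 genes, and 8 of the case-list peaks, in 4 genes. Gsta3 had 7 control-list peaks, with folds from 8.64 to 113, and 2 case-list peaks. One of these, chr1:21260048-21260189, had the same coordinates in both lists (fold 34.5 and 2.63). Gsta4 had 1 control-list peak (fold 22.4) and 3 case-list peaks (fold 9.90 to 32.6), of which chr9:78205912-78206053 was in both lists. Gsta1, with 3 and 2 input fragments, had 1 control-list peak (fold 6.17) and 2 case-list peaks, and Gsta2 had 1 case-list peak. The case-list peaks of 142 bases in Gsta1 and Gsta2 had the same fold, 24.7.

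Of the other classes, Gstz1 had 3 control-list peaks (fold 6.66 to 14.1), of which 1 reached the gene end, and Gstk1 had 3 (fold 11.8 to 40.9). Gsto1 had 1 with a fold of 107. Gstm3 had 1 peak in each list, which overlapped near the gene end (fold 8.82 in control and 18.1 in case). Gstt3 had 1 in each list at different places (fold 19.8 and 2.94). Gstm1, Gstm7, Gstt2 and Gstcd had 1 control-list peak each, with folds of 6.54, 32.4, 13.2 and 33.2, and Gstm4 had 1 case-list peak with a fold of 21.0.

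The pi-class genes Gstp1 and Gstp2 are close copies on chromosome 19, and their upstream sequences are printed to show how alike they are. They lie at chr19:4037913-4038032 and chr19:4042222-4042341 of GRCm38.p6 on the minus strand, from RefSeq, and capitals mark a run of 34 bases that 2 of the 32851 promoter windows held.
Gstp1: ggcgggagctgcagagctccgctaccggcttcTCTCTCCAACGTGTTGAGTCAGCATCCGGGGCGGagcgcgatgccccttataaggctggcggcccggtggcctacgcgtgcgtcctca
Gstp2: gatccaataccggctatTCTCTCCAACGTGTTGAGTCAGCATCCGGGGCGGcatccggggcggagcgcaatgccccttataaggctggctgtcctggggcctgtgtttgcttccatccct

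Gstp1 had a control-list peak at its start (50 bases, fold 7.27) and another at its end (251 bases, fold 13.3). Gstp2, listed at 0 in both inputs, had a control-list peak of 252 bases at its own end with a fold of 23.6. Reads from these copies are uncertain to assign. Neither gene had a case-list peak.

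Over the 3 families, 11 of 77 control-list peaks (14.3%, exact binomial interval 7.35% to 24.1%) were overlapped by at least 1 base of a case-list peak, against 35.5% of all control-list peaks. From the other side, 11 of 21 case-list peaks (52.4%, 29.8% to 74.3%) were overlapped, against 35.3% of all case-list peaks. The overlapped case-list peaks comprised 6 of 7 in Ugt, 2 of 3 in Sult and 3 of 11 in Gst. Peaks that ended within 50 bases of the annotated gene end numbered 9 of 77 in control, against 5.27% of all control-list peaks, and 3 of 21 in case, against 4.24%. At gene starts the case list had 4 of 17 placed member peaks (Ugt2b36, Ugt2b37, Gsta1 and Gsta3), against 2.03% of all case-list peaks. The inputs differed in depth and the lists in their FDR, and the part of either in the lower number of case-list member peaks was not tested.

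Promoter windows from RefSeq were matched by symbol for 52 of the 60 members (63 windows). The antioxidant response element core TGACNNNGC was in 10.3% of Gst windows (Gsta3, Gstm5 and Gstm7) and in 0 of the Ugt and Sult windows, against 10.2% of all. The TATA box letters TATAAA were in 12.7% of member windows, against 12.4% of all, and the xenobiotic response element core GCGTG in 17.5%, against 28.2%. Each was searched for on both strands of the 250 bases before the start. A match describes these letters and does not show that a factor binds there.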

How the data were processed

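The authors deposited FPKM per gene and, beside it, a signal headed as counts, both per the file headers. Cufflinks, Cuffdiff, HISAT2 2.0.4, cutadapt 1.9.3 and the build mm10 are listed, with no roles or order, per the submitters' processing notes. The deposited signal is not a raw count: most values were multiples of 1 unit, which was not the same in both libraries. Dividing by that unit gave fragments, of which 92.6% (control) and 91.7% (case) of the values above 0 were whole within 0.02. Per the file headers, the authors' peak caller gave every peak a ratio (fold enrichment), a score from its p-value and an FDR in percent. Peak names begin with MACS. The sources used here state no version, settings or background library.

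Mitochondrial genes were set aside, and genes were kept where FPKM averaged at least 1. Values were compared as log2(FPKM + 1) in case minus that in control, a scale that understates differences of low genes. The limma fit named in the design requires 2 or more libraries of each genotype, so there was no test and there is no p-value. Intervals are 95% exact Poisson or Clopper-Pearson intervals and take in at most counting error. PCR copies of a molecule are counted as fragments, so the intervals can be too narrow even for that. Fragments that were not whole were rounded for the intervals, which leave out error in the assignment of reads. Ratios of scaled fragments use the deposited signal and, unlike FPKM, are not scaled by transcript length. They do not equalise the depth of the libraries either. Starts in the files count from 0, so 1 was added. Peaks were compared by overlap of at least 1 base, and gene starts, ends and promoters came from RefSeq tables on GRCm38.p6. A further 8 columns of library values and 4 peak lists carry library numbers that match no label; of these only the gene names of the expression table were used, in which all 60 members were also listed. Every member with a mean of at least 1 FPKM is given with its level, and fragments and intervals are given for at least the 3 most abundant and the 3 with the largest differences in each direction per family. One gene list is not reported here. The members, gene lists and marker lists were chosen with earlier results of these data known. Calculations used Python 3.11.15, pandas 2.3.3, NumPy 2.4.6 and SciPy 1.17.1 and were tested on simulated data.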

Additional observations from a re-analysis of the deposited data

How the results depend on the processing

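No paired analysis was possible because 1 library per genotype could be tied to a label, and leaving out a replicate could not be run for the same reason. The cause of each move below was not tested, except that fewer genes pass a higher FPKM minimum. Of 44 members, 29 were above control under every setting in which they were kept, 7 were called higher under every such setting (Gstz1, Gstt3, Sult1d1, Sult5a1, Sult3a1, Ugt1a5 and Ugt1a7c), and Gstm3 was called lower under all 8. The matching shares of all genes kept were not calculated, so these counts are not shown to be unusual. Sult5a1 and Sult3a1 met the filter only through their case value. The sign turned for 11 members that were above control as deposited: Gstm1, Gsta4, Sult2a2, Ugt1a1, Ugt2b5, Ugt2b34, Ugt1a9, Ugt2b1, Ugt2b35, Ugt2b38 and Ugt3a1. The median log2 difference of all genes kept was 0.41 as deposited. It reversed to -0.15 with equal non-mitochondrial totals (768 genes higher and 2003 lower) and to -0.24 with fragments scaled to library depth (857 and 2411), and was 0.16 after quantile normalization (1373 higher), 0 after median centring (1108 higher), 0.52 with a pseudocount of 0.1, 0 without a filter and 0.73 with a minimum of 5 FPKM (369 lower). For Ugt, equal totals gave 2 genes higher and a median of 0.33, quantile normalization 4 and 0.31, median centring 4 and 0.53, and fragments scaled to depth 4 and 0.36, and a pseudocount of 0.1 gave a median of 1.07. For Sult, equal totals gave 3 higher, 2 lower and a median of 0.92, quantile normalization 0 lower and 1.11, median centring 2 lower and 1.06, and fragments scaled to depth 2 lower and 0.995. A minimum of 5 FPKM gave 3 higher, 0 lower and 1.87, a pseudocount of 0.1 gave 1.95 and no filter 0.19. For Gst, equal totals gave 4 higher, 2 lower and a median of 0.35, quantile normalization 4 higher and 0.52, median centring 4 higher and 0.59, fragments scaled to depth 3 higher, 2 lower and 0.47, a pseudocount of 0.1 gave 1.11 and no filter 0.89. Members with a control-list peak went from 38 to 24 at a fold of at least 20 and to 11 among the 5000 peaks of highest fold, and those with a case-list peak from 17 to 5 and 2. By family, the control list gave 11 and 7 Ugt genes, 7 and 2 Gst genes and, among the 5000 peaks, 2 Sult genes. The case list gave 0 and 0 Ugt, 1 and 1 Sult and 4 and 1 Gst genes. Shares of all genes at these cut-offs were not calculated, so the falls are not shown to be particular to the members. The median fold of all peaks was 28.5 in the control list and 14.95 in the case list. Members with few fragments, such as Sult2a5 (9 and 2) and Sult1b1 (3 and 22), are limited by depth.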

Other observations

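Some peak lengths recurred among close copies, a pattern chosen after the values were seen. Peaks of 142 bases were found in Gsta1, Gsta2, Gsta3 and Gsta4 (6 peaks over both lists), a length held by 0.291% of all control-list and 0.336% of all case-list peaks. Peaks of 132 bases were found in Gsta1, Gsta3, Ugt2b5, Ugt2b36 and Ugt2b38 (5 control-list peaks), against 0.349% of the control list. No exon annotation of these genes was used here, so the lengths were not compared with exons.

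Members with a peak in a list and at most 3 input fragments in the same library were Sult3a1, Gstp2 and Ugt2a1 (0 control fragments), Sult5a1 (1 control fragment) and Gsta1 (3 control fragments) in the control list, and Gsta1 (2 case fragments) in the case list.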
